A study of Sus scrofa with 8 samples.

Results

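Sodium-proton exchangers of the SLC9 family move Na+ in one direction across a membrane and H+ in the other. At the plasma membrane they expel acid from the cell, which supports HCO3- secretion and, at apical membranes, Na+ absorption. In the Golgi apparatus and endosomes, related exchangers let protons leave the lumen and so set its pH. The genes described here are SLC9A2, SLC9A3, SLC9A4, SLC9A5, SLC9A7, SLC9A8, SLC9A9 and SLC9C2, taken by gene name from the annotation that the authors edited and deposited. They are 8 of its 30390 genes. The study took tracheal submucosal glands, which lie beneath the airway surface, from newborn pigs, 4 wild-type and 4 CFTR-/-, and made a 3′ scRNA-seq library from each. The CFTR-/- animals lack CFTR, the epithelial anion channel whose loss causes cystic fibrosis. The annotation of the Sscrofa11.1 genome used to count reads in all 8 libraries is the data set examined here. It holds no value per animal, so expression, genotype differences and depth were not analysed here, and the lengths and counts below have no replicate error.

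The exchangers were divided by where their proteins are known to work. The plasma membrane class held SLC9A2 (NHE2) and SLC9A3 (NHE3), apical exchangers of absorbing epithelia, SLC9A4 (NHE4), a basolateral exchanger best known in the stomach, and SLC9A5 (NHE5), found mainly in brain. The organelle class held SLC9A7 (NHE7) of the trans-Golgi network, SLC9A8 (NHE8), a Golgi exchanger that is also found at the apical membrane of some epithelia, and SLC9A9 (NHE9) of endosomes. The study of these glands instead lists NHE8 among basolateral transporters of serous and mucous cells. The class of SLC9A8 is thus open to question and was also varied, as described below. SLC9C2 is a relative of the sperm exchanger SLC9C1. Its place in the cell is less settled, and it was described on its own. The classes have 4 and 3 genes, genes are not replicates, and no test was made between them. Values for all 20661 nuclear protein-coding genes with a coding transcript are given as background.

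In 3′ libraries the end of a gene model decides which reads are counted, so the annotated 3′ ends are shown first. A poly(A) signal, the hexamer AATAAA or ATTAAA read on the strand of the gene, precedes the cleavage site of a transcript. The last 30 bases of the 7 SLC9A models follow, 5′ to 3′ on Sscrofa11.1, with the hexamer in capitals.
SLC9A2, chr3:51535798-51535827, minus strand: ctggtctgtgccgcggctgctcatcccaag
SLC9A3, chr16:79704055-79704084, plus strand: tcatcaagtctATTAAAaatgtttcaagga
SLC9A4, chr3:51686001-51686030, minus strand: aggccaggggttgaattggagctatagctg
SLC9A5, chr6:27904047-27904076, plus strand: ctaagacacATTAAAcatctctcaaatgga
SLC9A7, chrX:41233308-41233337, minus strand: tttttgtaAATAAAgttttattgacacaca
SLC9A8, chr17:51477247-51477276, plus strand: atttagaAATAAAaatgagtgctgccactc
SLC9A9, chr13:83962613-83962642, minus strand: ttaatcctAATAAAattttgttatgaagta

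A hexamer lay in the last 50 bp of 5 of the 8 models. The share among all protein-coding genes was 60.9%, so the count was near the background. The 3 organelle exchangers each had AATAAA, starting 22 bp before the end in SLC9A7 and SLC9A9 and 23 bp before it in SLC9A8. SLC9A3 and SLC9A5 had ATTAAA, starting 19 and 21 bp before their ends. AATAAA itself was present in 49.8% of all genes. No hexamer was found in SLC9A2, SLC9A4 or SLC9C2, in the last 50 bp or in the last 100 bp.

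SLC9A2 had the shortest 3′ UTR of the 8 genes. It was 167 bp long, at the 21.5th percentile of protein-coding genes, and SLC9A2 alone among the members was under 200 bp (24.2% of all genes). Of the last 500 bases of its transcript, 333 were coding, whereas in each of the other 7 members all 500 were 3′ UTR. The genome continued with an A-rich stretch directly after the annotated end. The next 30 bases, shown because they adjoin the end that counting depends on, hold 22 A, and the capitals mark the longest run, of 9 A.
SLC9A2, chr3:51535768-51535797, minus strand: aaaaagaaaaatcaaaggAAAAAAAAAccc
An A-rich stretch within 20 bp after the end was found in this member only, compared with 5.14% of all genes. The next gene on the same strand, TMEM182, began 43.1 kb farther on. SLC9A2 was left as RefSeq has it, and whether reads fall beyond its end was not tested.

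The other members had 3′ UTRs from 986 bp (SLC9A5) to 5629 bp (SLC9A7), all above the median of 716 bp over all genes. In the plasma membrane class, SLC9A4 had 1641 bp and SLC9A3 had 3582 bp, which gave a class median of 1313.5 bp. In the organelle class, SLC9A9 had 1743 bp and SLC9A8 had 5528 bp, and the class median was 5528 bp. The difference between the medians, plasma membrane minus organelle, was −4214.5 bp. The ranges overlapped, since SLC9A3 was longer than SLC9A9. SLC9A7 and SLC9A8 lay at the 96.6th and 96.3th percentile of protein-coding genes, and their 3′ UTRs made up 70.8% and 74.8% of the transcript. SLC9C2 had 3767 bp.

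**Figure D1:**
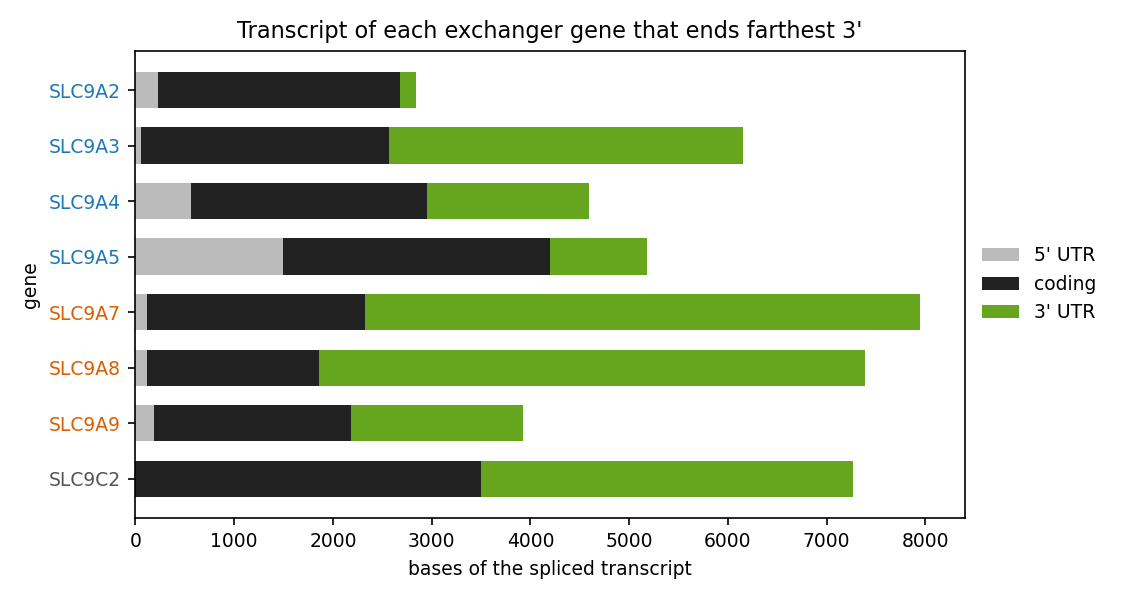
Length of the 5′ UTR (gray), coding sequence (black) and 3′ UTR (green) in bases (horizontal axis) for each gene, using its coding transcript with the most distal 3′ end (vertical axis, names in blue for plasma membrane, orange for organelle and gray for neither). The 3′ UTR ranges from 167 bp in SLC9A2 to 5629 bp in SLC9A7, and the 3 organelle exchangers have the 3 shortest coding sequences.

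Coding sequence separated the classes in these 7 genes. It was 2394 bp in SLC9A4, 2445 bp in SLC9A2, 2511 bp in SLC9A3 and 2706 bp in SLC9A5. It was 1743 bp in SLC9A8, 1986 bp in SLC9A9 and 2199 bp in SLC9A7. Every plasma membrane exchanger was thus longer than every organelle exchanger, and the medians (2478 and 1986 bp) differed by 492 bp. This separation holds only with SLC9A8 in the organelle class. Counted as a plasma membrane gene, SLC9A8 would be shorter than both remaining organelle genes, and the ranges would overlap. All were above the median of 1209 bp over protein-coding genes. SLC9C2 was the longest, with 3497 bp, although part of its model had been removed, as described below.

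The difference in coding length lay toward the C terminus, the cytoplasmic tail through which plasma membrane exchangers are regulated. In an alignment of the proteins encoded by these models, 62 residues were identical in all 7 SLC9A members. After the last of these residues, the plasma membrane exchangers had 274 (SLC9A2), 319 (SLC9A3), 268 (SLC9A4) and 391 residues (SLC9A5). The organelle exchangers had 116 (SLC9A7), 46 (SLC9A8) and 108 (SLC9A9), and this separation too ends if SLC9A8 is moved. From the first identical residue, the initiator methionine, to the last, the lengths of the classes overlapped, at 510 to 540 residues in the plasma membrane class and 534 to 616 in the organelle class.

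The longer coding sequences were not cut into more exons. SLC9A2 and SLC9A4 had 12 coding exons each and SLC9A3 and SLC9A5 had 16 each, whereas SLC9A8 had 16 and SLC9A7 and SLC9A9 had 17 each. The medians were 14 and 17, a difference of −3, and the ranges met at 16. The typical coding exon was also larger in the plasma membrane class. Its median size was 145.5 to 182.5 bp in the 4 plasma membrane genes and 106 to 107 bp in the 3 organelle genes, with no overlap, and 138 bp over all genes. Coding length and exon number fix the mean exon size, though not the median, so this is not a fully separate finding. SLC9C2 had 27 coding exons, more than any other member.

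The positions of introns within the coding sequence were shared within classes and not between them. An intron was counted as shared when it interrupted both genes at the same alignment column and in the same phase, the place within the codon. SLC9A2 and SLC9A4 had 11 coding introns each and shared 10 of them. SLC9A3 and SLC9A5, with 15 each, shared 12. Across the 6 plasma membrane pairs the count ran from 7 to 12 with a median of 8, and 7 positions were common to all 4 genes. In the organelle class, SLC9A7 and SLC9A9, with 16 each, shared 14, and SLC9A8, with 15, shared 7 with each of them. The same 7 positions were common to all 3 organelle genes. In each of the 12 pairs made of a plasma membrane and an organelle exchanger, 0 introns were shared.

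SLC9A8, the member whose class is open to question, had its shared introns with the organelle exchangers. It shared 7 with SLC9A7, 7 with SLC9A9 and 0 with each of the 4 plasma membrane genes. Allowing 3 alignment columns of slack gave 8, 8 and 1, respectively. SLC9C2, with 26 coding introns, shared 1 with SLC9A8 and 0 with the other members. Of the 73 different positions, 43 occurred in a single gene.

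**Figure D2:**
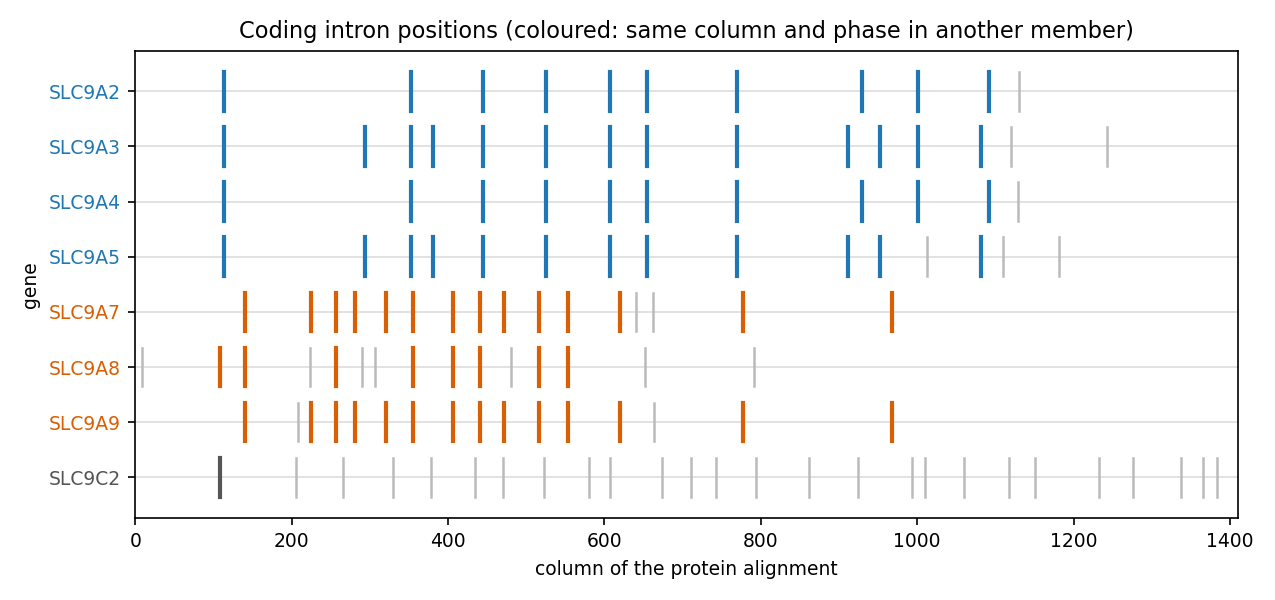
Positions of coding introns (ticks) along the 1409 columns of the protein alignment (horizontal axis) for each gene (vertical axis). Ticks are colored by class where another member has an intron at the same column and phase and light gray where none does. The 7 positions common to the 4 plasma membrane genes and the 7 common to the 3 organelle genes fall at different columns.

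Protein identity followed the same grouping. Identity over aligned residues was 56.9% between SLC9A2 and SLC9A4, 54.3% between SLC9A3 and SLC9A5 and 61.8% between SLC9A7 and SLC9A9. The other plasma membrane pairs had 36.8 to 41.9%. SLC9A8 was 32.9% identical to SLC9A7 and 35.8% to SLC9A9, and 27.7 to 29.7% identical to the plasma membrane exchangers. Pairs between the classes had 25.9 to 30%, and pairs with SLC9C2 had 16.3 to 19%. Identity and shared introns come from the same alignment and the pairs share genes, so these values describe the family and were not tested.

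**Figure D3:**
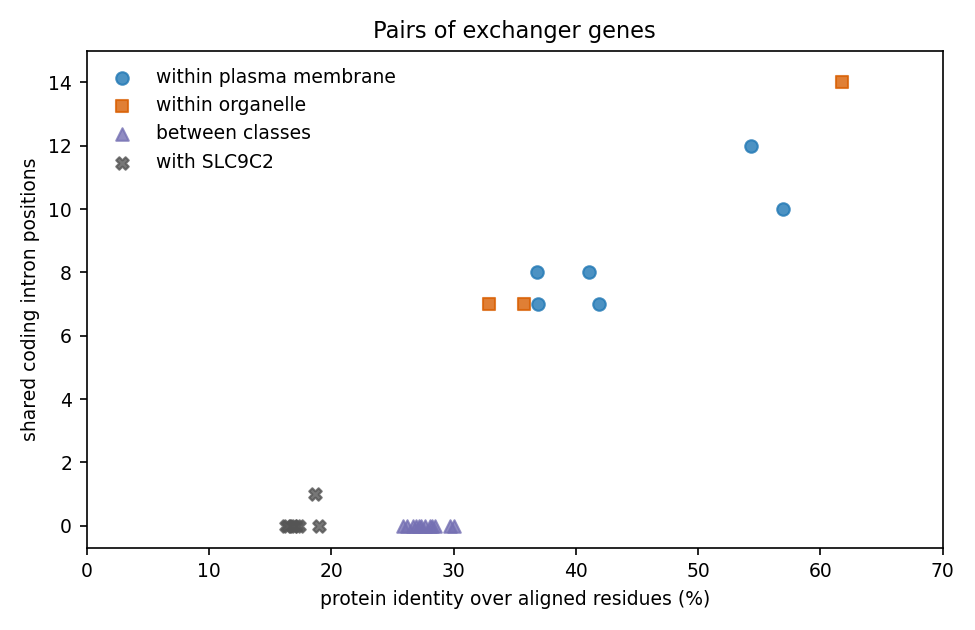
Shared coding intron positions (vertical axis) against protein identity over aligned residues in percent (horizontal axis) for the 28 pairs of genes, by kind of pair. Pairs within a class lie at 32.9% identity or more with 7 to 14 shared introns, and pairs between classes lie at 0 shared introns.

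SLC9A2 and SLC9A4, which share the most introns for their number, are neighbors. Both lie on the minus strand of chromosome 3, SLC9A4 from 51686001 to 51749996 and SLC9A2 from 51535798 to 51623003, with 63 kb and 0 genes between them. Upstream of SLC9A4, 12.1 kb away, is IL18RAP, a subunit of the interleukin-18 receptor. The remaining members are on different chromosomes. SLC9A3 is on chromosome 16 (plus strand, 79625555 to 79704084), SLC9A5 on chromosome 6 (plus strand, 27883163 to 27904076), SLC9A7 on chromosome X (minus strand, 41233308 to 41399032), SLC9A8 on chromosome 17 (plus strand, 51401061 to 51477276), SLC9A9 on chromosome 13 (minus strand, 83962613 to 84636878) and SLC9C2 on chromosome 9 (minus strand, 115868345 to 115987710).

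Gene span, introns included, ranged from 20.9 to 674 kb. SLC9A9 covered 674 kb, at the 99.4th percentile of protein-coding genes, and 0.691% of this stretch was exon. The transcript used for its other lengths spanned 540 kb, and the longest intron of that transcript was 97.2 kb. SLC9A7 covered 166 kb, of which the first intron took 86.8 kb. SLC9A8 covered 76.2 kb. The plasma membrane genes covered 20.9 kb (SLC9A5), 64 kb (SLC9A4), 78.5 kb (SLC9A3) and 87.2 kb (SLC9A2). The medians were 71.3 and 166 kb, and the ranges overlapped because SLC9A8 was shorter than SLC9A2 and SLC9A3. In SLC9A3, the first intron alone was 63.1 kb, or 80.4% of the gene. The median over all genes was 19.2 kb, and every member was above it.

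**Figure D4:**
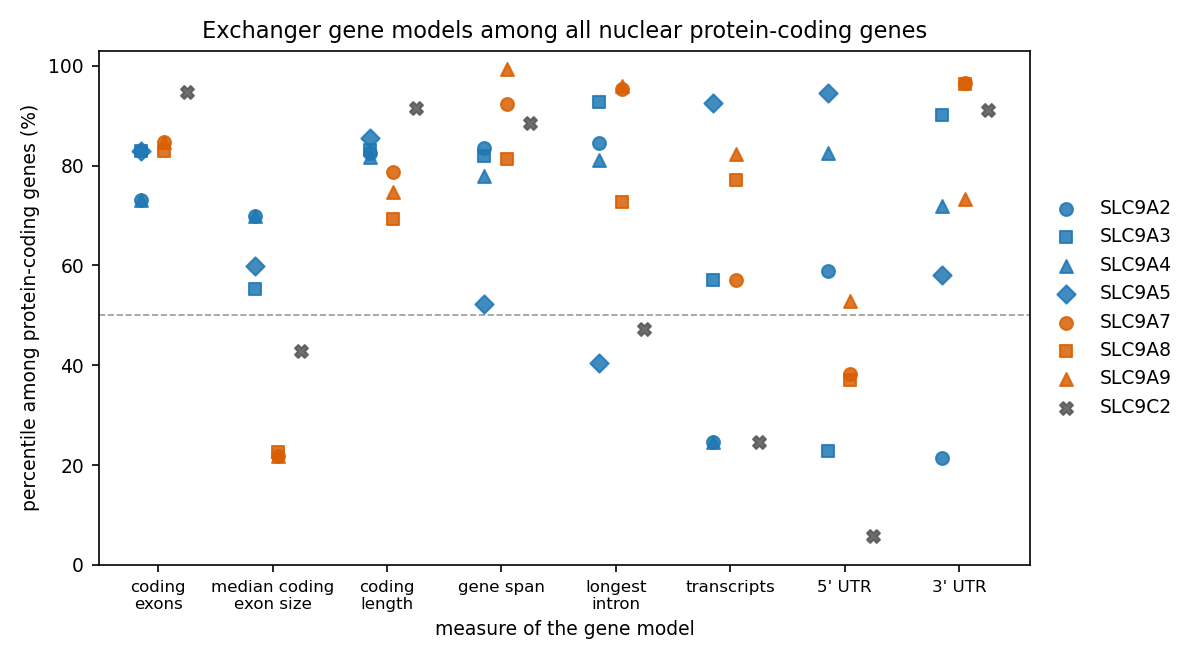
Percentile of each member (points; blue for plasma membrane, orange for organelle, gray for SLC9C2) among the 20661 nuclear protein-coding genes (vertical axis, %) for 8 measures of the gene model (horizontal axis), with the 50th percentile dashed. All members lie above the median in coding exons, coding length and gene span, and, with SLC9A8 in the organelle class, the classes do not overlap in coding length or median coding exon size.

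The number of annotated transcripts differed more within the plasma membrane class than between classes. SLC9A2, SLC9A4 and SLC9C2 had a single transcript, SLC9A3 and SLC9A7 had 2, SLC9A8 had 4, SLC9A9 had 5 and SLC9A5 had 9. The class medians were 1.5 and 4, with overlapping ranges. Of the 9 transcripts of SLC9A5, 5 were noncoding. The 5 transcripts of SLC9A9 had 4 different start sites, and all of them ended at the same base.
Over all transcripts, coding or not, 2 of the 8 members, SLC9A5 and SLC9A8, had more than 1 annotated 3′ end. The share among all genes was 28.1%, so the count was near the background. The ends of SLC9A5 were 7845 bp apart, and its transcript with the near end had a 3′ UTR of 132 bp. The ends of SLC9A8 were 3115 bp apart, with 3′ UTRs of 2413 and 5528 bp. In both genes the near end had no hexamer in its last 50 bp and the far end had one. Counting in 3′ libraries sums over the ends of a gene.

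The 5′ UTR did not separate the classes. It was 55 bp in SLC9A3, 233 bp in SLC9A2, 559 bp in SLC9A4 and 1493 bp in SLC9A5, and 117 to 193 bp in the organelle genes. The medians, 396 and 122 bp, differed by 274 bp. The 1493 bp of SLC9A5 put it at the 94.5th percentile. This gene and FHOD1, a formin on the other strand, began 85 bp apart. SLC9C2 had no 5′ UTR, as did 11.5% of all genes.

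None of the 8 members shared exon bases with a gene on its own strand, which 3.34% of all genes did, and none had an assembly gap within 1000 bp after its end (0.0242% of all genes). By whole span, introns included, SLC9C2 alone overlapped a gene on its strand, ANKRD45, compared with 7.27% of all genes. Exon bases were shared with a gene on the opposite strand by 3 members, compared with 17.1% of all genes. SLC9A7 shared 1347 bases at its 3′ end with CHST7, a sulfotransferase of the Golgi. SLC9C2 shared 554 bases with PRDX6, a peroxiredoxin, and SLC9A5 shared 88 bases with the lncRNA LOC106510494. Their effect on counts was not tested. The last 500 bases of each model aligned to 0 other places in the genome over 98 or more bases at 95% or more identity.

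Of the 8 gene models, 7 were identical in exons and coding segments to RefSeq, and SLC9C2 was the edited one. In RefSeq it was the longer part of LOC100624136, a placeholder gene with 2 transcripts, one of which became ANKRD45. The longer transcript lost its 5 upstream exons in the edit, 89, 385, 168, 95 and 139 bp long. All 876 bases of these exons also belonged to the ANKRD45 transcript, and the exon bases shared by the 2 models fell from 876 to 0. The transcript went from 32 to 27 exons, from 4269 to 3497 coding bases and from a 5′ UTR of 104 bp to 0 bp. Its last exon (3803 bp) and 3′ UTR (3767 bp) were the same in both annotations, so the 3′ end of this transcript did not move. The end of the ANKRD45 transcript, which in RefSeq belonged to the same gene, now belongs to a separate one. The effect of the edit on counts was not tested.

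The trimmed SLC9C2 model is no longer a complete reading frame. Its coding length was not a multiple of 3, which was so for 0.339% of all genes and for no other member. It opened inside a codon, had no start codon, and after its first 2 bases read 1164 codons without an internal stop. The first 30 bases are shown because they are now the 5′ edge of the gene.
SLC9C2, chr9:115944648-115944677, minus strand: gtgagtctgtactagtcaaagtgtcaacag
The gene record was not shortened with the exons. It still ended at 115987710, the base at which ANKRD45 starts on this strand, 43033 bp upstream of the first remaining SLC9C2 exon. A record longer than its exons was found in 3 of the 20661 genes (0.0145%). By its record SLC9C2 spanned 119 kb, and by its exons 76.3 kb. The exons of ANKRD45 lay wholly upstream of those of SLC9C2, 3.52 kb away.

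**Figure D5:**
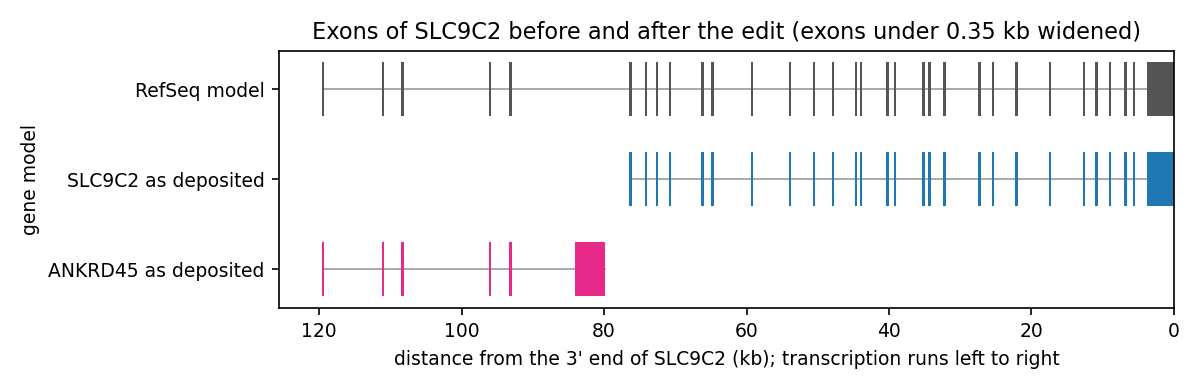
Exons of the RefSeq model, of SLC9C2 as deposited and of ANKRD45 as deposited (vertical axis), by distance from the 3′ end of SLC9C2 in kb (horizontal axis, reversed so that transcription runs left to right; short exons are widened to be visible). The 5 exons missing from SLC9C2 are at the positions of exons of ANKRD45, and the last exon of SLC9C2 is the same before and after the edit.

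Other exchangers and regulators of the family, most of them regulators, had, by median, shorter 3′ UTRs, though single exchangers varied widely. All 11 genes of a context list were in the annotation. Their 3′ UTRs ranged from 15 to 4526 bp around a median of 779 bp, near the 716 bp over all genes. The median over the 8 members was 2660 bp. A hexamer was present in 7 of the 11, near the share of 60.9% among all genes. SLC9B1 and SLC9B2, related exchangers on chromosome 8, had 3′ UTRs of 787 and 4526 bp, and SLC9C1 had 569 bp and 28 coding exons, close to the 27 of SLC9C2. The scaffold proteins SLC9A3R1 and SLC9A3R2, which anchor NHE3, had 632 and 940 bp. The further scaffolds PDZK1 and PDZD3 had 435 and 15 bp, and EZR, the linker to actin, had 779 bp. The calcineurin-like subunits CHP1 and CHP2 had 1922 and 2621 bp. The related TESC was the edited gene of this list, with 248 bp in the deposited annotation and 13164 bp in RefSeq.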

How the data were processed

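The deposited file is the authors' gene annotation in GTF format, on Sscrofa11.1 with 1-based positions. It started from NCBI Annotation Release 106 for the pig, in which the authors changed gene models, and it served as reference for Cell Ranger, given as 3.0.2 by the submitters' processing notes. RefSeq models of the same release and build, and the genome, were read from NCBI files. Lengths of UTRs, coding sequence, exons and introns are those of the coding transcript that ends farthest 3′, ties going to the longest coding sequence. Gene span is that of the gene record, and the exon share of a gene counts the exons of all its transcripts. Stop codons counted as coding. Proteins translated from the genome were aligned with mafft 7.526 (local pairs). An A-rich stretch was 6 A in a row or 7 A of 10 bases. Models were compared with the genome by blastn 2.17.0 (megablast). Percentiles are midranks. Python 3.11.15, numpy 2.4.6, pysam 0.24.0 and matplotlib 3.10.9 were used. Part of the measures was tested on 200 simulated gene models, and 10 of 10 were recovered. They were exon number, coding length, UTRs, transcript choice, intron phase, shared introns, shared bases, hexamers and A-rich stretches. Simulated UTRs were shorter than any exon, so none crossed an intron. Gene span, transcript and end counts, median exon size and percentiles were not tested in this way. The members, classes and lists were chosen with earlier results of these data known. Genes named are the 8 members, 11 exchangers and regulators, nearest and overlapping genes, and ANKRD45, of which those that a result turns on are given. The blastn search and the count of residues after the last identical one were added after seeing the data. Count matrices were not used here, and the 3′ end sequence of SLC9C2 is not reported here.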

Additional observations from a re-analysis of the deposited data

How the results depend on the processing

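Of 28 alternatives that could change a value, 13 kept it or stayed within 1.5 times of it, and 15 moved it. All 13 were for counts of hexamers or shared introns, which have no direction to change. Every alternative that could change a class difference moved it, and 0 changed its direction. Counting SLC9A8 as a plasma membrane gene changed the class differences (plasma membrane minus organelle) to −1 coding exons, 352.5 bp of coding length, −343779.5 bp of span, −1.5 transcripts, 75.5 bp of 5′ UTR and −2045 bp of 3′ UTR. Counting SLC9C2 there gave −1 coding exons, 525 bp, −87195 bp, −3 transcripts, 111 bp and −3887 bp in the same order. These moves come from the change of members. With SLC9A8 moved, the classes overlapped in coding length and in residues after the last identical one. Median coding exon size did not overlap, but only narrowly. SLC9A8 had 107 bp, next to the 106 bp of SLC9A7 and of SLC9A9, and was the smallest of its new class. Coding transcripts alone gave −1.5 transcripts where all gave −2.5. Choosing the transcript with the longest coding sequence, or the RefSeq models, could not change the class differences, because the same transcript was chosen in all 7 SLC9A genes and their models equal those of RefSeq. AATAAA alone was present in 3 members instead of 5, and by whole gene spans 1 member (SLC9C2, with ANKRD45) overlapped a gene on its strand instead of 0. Other alignment settings, chosen after seeing the data, gave median shared introns of 7 to 8 in plasma membrane pairs, 7 in organelle pairs and 0 between classes, where single pairs reached 1. No paired analysis was possible because nothing in the file is measured per animal, and depth is unknown for the same reason.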
